A study of Mus musculus with 9 samples.

Results

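The genes described here encode the subunits of the oxidative phosphorylation machinery, from the mitochondrial genome and from the nuclear genome. They were taken by gene symbol from tables of mouse uterus expression: symbols that start with mt-Nd, mt-Co, mt-Atp or mt-Cytb, the Nduf genes of the a, b, c, s and v series, and the Uqcr, Cox4 to Cox8, Sdh and Atp5 genes, with pseudogene symbols ending in -ps left out. The rule gave 94 of 34619 unique symbols, 13 of them mitochondrial and 81 nuclear. By their symbols, 36 of the nuclear genes were counted with complex I, 4 with complex II, 8 with complex III, 16 with complex IV and 17 with complex V. Ndufa4, now placed in complex IV, was thus counted with complex I, and Atp5s and Atp5sl with complex V. Of the mitochondrial genes 7 belong to complex I, 1 to complex III, 3 to complex IV and 2 to complex V. The symbol rule does not take some true subunits, such as Cox4i1 and Cyc1, and it takes Atp5s and Atp5sl, which are no longer counted as subunits of ATP synthase.

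The study sequenced messenger RNA from the uterus of wild-type (WT) female mice of the outbred CD-1 (ICR) stock, bought at 7 to 8 weeks of age and given 1 week to settle. Over 28 days they were gavaged with corn oil as control, with bisphenol B (BPB) at 300 µg/kg daily, or with bisphenol AF (BPAF) at the same daily dose, and each of the 3 groups has 3 libraries. All mice were kept on estrogen-free food, and the stage of the estrous cycle at collection is not given. The labels do not say that the libraries of a group came from separate mice, so the p-values measure only the spread between these libraries, which may be in part technical.

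Oxidative phosphorylation passes electrons from NADH (at complex I) and succinate (at complex II) through complexes III and IV to oxygen, and complex V, ATP synthase, uses the proton gradient built on the way to make ATP. Complexes I, III, IV and V each combine subunits made inside the mitochondrion from its own genome with subunits encoded in the nucleus and imported, while complex II is wholly nuclear. Mitochondrial transcripts are cut from long precursors, and most of the messenger RNAs carry short poly(A) tails, so a library made from poly(A) RNA contains those. In the uterus, smooth muscle and secretory epithelium both draw on this machinery.

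Some members share sequence with other rows of the tables, and these stretches are shown because the values of mt-Atp6 and of the other mitochondrial genes turn on how such reads were counted. The end of mt-Atp8 and the start of mt-Atp6 are the same bases of the mitochondrial genome, 43 in all, and the nuclear pseudogene Gm10925 starts with the same letters. Capitals mark the stretch that all 3 have in common, in the sequences of GENCODE M21.
mt-Atp8 end: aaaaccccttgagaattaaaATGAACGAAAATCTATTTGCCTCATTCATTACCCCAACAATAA
mt-Atp6 start: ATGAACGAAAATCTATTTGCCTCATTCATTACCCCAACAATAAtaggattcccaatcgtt
Gm10925 start: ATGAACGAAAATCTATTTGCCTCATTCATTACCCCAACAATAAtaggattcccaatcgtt
Over all 678 bases that could be aligned, Gm10925 and mt-Atp6 had 0 differing bases, so no read within them can tell the rows apart by sequence. The start of mt-Nd3 and of its nuclear copy Gm28438 shows the other case, a single difference over 345 bases, T3C counted from the first base of mt-Nd3, in capitals.
mt-Nd3 start: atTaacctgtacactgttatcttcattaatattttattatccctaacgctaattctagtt
Gm28438 start: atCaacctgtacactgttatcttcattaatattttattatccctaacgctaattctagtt
In all, 7 mitochondrial members had such a copy among the rows. The copies of mt-Co2 (Gm28661), mt-Atp6, mt-Co3 (Gm28437), mt-Nd4l (Gm10222) and mt-Nd4 (Gm28439) had 0 differences over the aligned bases, and that of mt-Co1 (Gm29216) had 1 over 483 bases, A1066T counted from the first base of mt-Co1.

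Nuclear members share promoter motifs, which are shown as sequence features with no bearing measured here on binding. Of the 66 nuclear members with an entry in RefSeq's table of promoters (GRCm38.p6, 250 bases before to 50 after the gene start), 9 held the core of the NRF1 motif, CGCATGCG, which reads the same on both strands, or 13.6%, against 2.07% of 27025 genes. NRF1 is a transcription factor known for genes of the respiratory chain. The 5 matches whose window of 30 bases lies wholly before the start are printed with the motif in capitals.
Atp5g2: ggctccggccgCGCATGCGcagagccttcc
Atp5j: aggccagaataCGCATGCGtacagtgcagt
Atp5k: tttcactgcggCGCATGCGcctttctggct
Cox6a1: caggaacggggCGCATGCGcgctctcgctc
Ndufa11: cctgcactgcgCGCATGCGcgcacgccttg
On GRCm38.p6 these windows lie at chr15:102671070-102671099 for Atp5g2, chr16:84835105-84835134 for Atp5j, chr5:108434430-108434459 for Atp5k and chr5:115349101-115349130 for Cox6a1, all on the minus strand, and at chr17:56717692-56717721 on the plus strand for Ndufa11. The others were in Atp5l, Ndufa8, Uqcr11 and Uqcrc1. The looser form CGCANGCG was in 25 of the 66 (37.9%) against 9.22% of all genes, with the first form among its matches. On both strands, the ETS motif CCGGAAG was in 16 (24.2%) against 9.93%, and the YY1 motif AAGATGGC in 9 (13.6%) against 3.19%.

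The values are FPKM, fragments scaled to transcript length and to the library's total, as deposited. Library totals recovered from them ran from 12620198 to 15616775 reads, and 11614 to 13105 genes per library reached 1 FPKM. Tests used log2(FPKM + 1) over the 13743 genes that reached 1 FPKM in 3 or more libraries, and a gene is called at an adjusted p under 0.05. Of the members 91 passed this level, all 13 mitochondrial and 78 nuclear. Cox7b2 and Cox8c were listed at 0 in every library and Cox6a2 at 0 to 0.390 FPKM. The lowest means among the tested members were those of Atp5g2 (1.97 FPKM), Cox6b2 (2.40) and Atp5g1 (2.71). The lowest mitochondrial value, for mt-Nd6, rested on 148 reads, and every other mitochondrial value on at least 3486, so counting error is small beside the spread between libraries for these genes. The 2 comparisons with control share the 3 control libraries.

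Libraries stood apart in ways that touch these genes. Control 3 had the highest mitochondrial share of reads, and control 3, BPB 1 and BPAF 1 had high values of short transcripts, as described below. Control 3 also had the lowest total (12620198 reads) and the fewest genes at 1 FPKM (11614). The FPKM of all genes summed to 495778 in control 3 and to 279547 to 391700 elsewhere. Without the mitochondrial rows these sums were 326549 and 240076 to 303677, so FPKM levels are not on an equal total between libraries. The summed level of 15 urothelium markers was 2278 to 3735 FPKM in the BPB libraries and 1971 in BPAF 1, against 15.0 to 90.4 in the other 5 libraries, and the sum of 10 smooth muscle markers was 7494 to 12010 in BPB, 3578 to 5700 in control and 1059 to 3449 in BPAF. Uterine epithelium markers (646 to 1613 FPKM) and stroma markers (887 to 2554) were present in all 9 libraries. In bulk tissue, fewer cells of a type and less RNA per cell cannot be told apart, and the part of these differences in the members' values was not tested.

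The 13 mitochondrial rows held most of the FPKM of the machinery in every library. Their sum was 39878, 39471 and 169229 FPKM in control, 93543, 92714 and 64421 in BPB, and 74199, 86729 and 81717 in BPAF. Controls 1 and 2 were the lowest of all libraries and control 3 the highest, so the controls enclosed both exposed groups. As a share of reads, the mitochondrial rows took 3.52%, 3.40% and 13% in control, 8.31%, 8.16% and 5.81% in BPB, and 6.33%, 7.83% and 7.24% in BPAF.

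The sum of the 81 nuclear rows was 3601, 3732 and 9130 FPKM in control, 6979, 4267 and 4014 in BPB, and 6394, 4990 and 3537 in BPAF. Control 3, BPB 1 and BPAF 1 were the 3 highest, 1 in each group. The ratio of the mitochondrial to the nuclear sum was 11.1, 10.6 and 18.5 in control, 13.4, 21.7 and 16.0 in BPB, and 11.6, 17.4 and 23.1 in BPAF. On the log2 scale it averaged 3.69 ± 0.45 in control, 4.06 ± 0.35 in BPB and 4.06 ± 0.50 in BPAF (SD, n = 3 each), so the group means differed by less than the SD within control. The mitochondrial sums spanned 39471 to 169229 and the nuclear sums 3537 to 9130, and the libraries did not order alike. BPB 2 and BPAF 3 had the highest ratios with nuclear sums of 4267 and 3537, while BPB 1 and BPAF 1 had high nuclear sums and low ratios. Control 3 had the highest nuclear sum and a ratio of 18.5, and controls 1 and 2 had low nuclear sums and the lowest ratios. Without mt-Atp6, which stood apart in BPB 2 as described below, the ratio was 18.9 in BPB 2 and 18.0 in control 3.

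**Figure D1:**
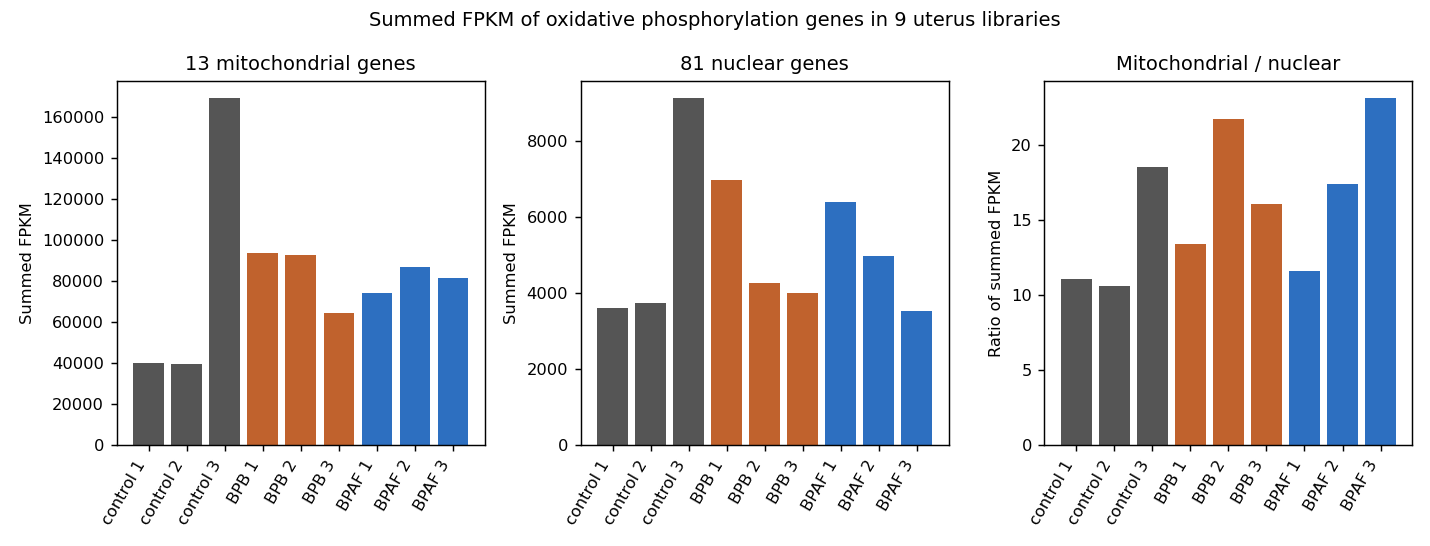
Summed FPKM of the 13 mitochondrial genes (left), of the 81 nuclear genes (middle) and their ratio (right), 1 bar per library, grey for control, orange for BPB and blue for BPAF. Control 3 has the tallest bar of both sums, and the ratio runs from 10.6 in control 2 to 23.1 in BPAF 3.

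The 4 most abundant mitochondrial members were mt-Atp8, mt-Co3, mt-Co1 and mt-Co2, which on average over the libraries made up 18.1%, 15.8%, 17.7% and 12.2% of the mitochondrial sum. FPKM is divided by length, but reads shared with the copies and with the overlap shown above, and the tie to length described below, leave the order of these levels, and that of the short mt-Atp8 in particular, uncertain. mt-Nd6, the 1 member encoded on the other strand, had the lowest share, 0.0768%, with 35.5, 20.6 and 132 FPKM in control, 113, 52.1 and 43.0 in BPB and 53.0, 87.8 and 45.1 in BPAF. Its 3' end overlaps mt-Nd5, which lies on the opposite strand, and whether strand was used in counting is not given in the sources used here.

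Among the complex IV genes, mt-Co1, the catalytic subunit with the oxygen-binding centre, had 8138, 6782 and 15460 FPKM in control, 15921, 16727 and 13056 in BPB, and 13703, 16530 and 15995 in BPAF. All 6 exposed libraries were above controls 1 and 2, and control 3 lay within them. Its estimated log2 difference from control was 0.68 (SE 0.44, limma adjusted p = 0.484) for BPB and 0.70 (SE 0.44, adjusted p = 0.520) for BPAF. mt-Co3, a further core subunit, had 5570, 4998 and 43419 FPKM in control, 18329, 10311 and 8267 in BPB, and 15265, 10966 and 11061 in BPAF. Control 3 was higher than every exposed library, and mt-Co3 took 25.7% of the mitochondrial sum there against 11.1% to 20.6% elsewhere. mt-Co2, which takes electrons from cytochrome c, had 4798, 5051 and 20360 FPKM in control, 13293, 9400 and 7910 in BPB, and 8627, 10635 and 10335 in BPAF.

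The complex I genes of the membrane arm, mt-Nd1 to mt-Nd6, differed among themselves in the same libraries. mt-Nd1 had 2284, 2739 and 12343 FPKM in control, 8038, 5578 and 4356 in BPB, and 5412, 7195 and 5429 in BPAF. mt-Nd3 had 664, 797 and 5402 in control, 2669, 1616 and 1180 in BPB, and 2870, 1924 and 1984 in BPAF. In both genes control 3 was the highest library and controls 1 and 2 the lowest. mt-Nd5 had 1202, 1135 and 2097 in control, 1531, 2325 and 1739 in BPB, and 1044, 2396 and 1730 in BPAF, so BPAF 1 was below every control. mt-Nd4l had 2186, 2436 and 4584 in control, 1986, 4498 and 3470 in BPB, and 1682, 3902 and 3871 in BPAF, with BPB 1 and BPAF 1 the lowest of all. mt-Nd2 ranged from 1286 FPKM in control 1 to 4429 in control 3, and mt-Nd4 from 1790 to 6120 in the same libraries. mt-Cytb, the core of complex III, had 3243, 3606 and 13575 in control, 8393, 7552 and 5519 in BPB, and 5077, 8626 and 7485 in BPAF.

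Of the complex V genes, mt-Atp8 had 7848, 7739 and 36754 FPKM in control, 13752, 14537 and 11321 in BPB, and 13988, 14830 and 14822 in BPAF. mt-Atp6, whose protein forms the proton channel with the ring of c subunits, had 834, 755 and 4555 in control, 2173, 12142 and 1308 in BPB, and 1749, 1773 and 1765 in BPAF. The value in BPB 2 stood apart: mt-Atp6 made up 13.1% of the mitochondrial sum there and 1.91% to 2.69% in the other 8 libraries. The identical row Gm10925 did not share it, with 1190, 977 and 10080 FPKM in control, 4543, 2954 and 2357 in BPB, and 3211, 3719 and 3262 in BPAF. mt-Atp6 was 4.11 times Gm10925 in BPB 2 and 0.452 to 0.773 times elsewhere. The 2 rows added together were 1.04 times mt-Atp8 in BPB 2 and 0.224 to 0.488 times elsewhere, so adding the copy left BPB 2 apart. The log2 difference of BPAF from BPB for mt-Atp6 was -0.89 (SE 0.89, limma adjusted p = 0.989), and it was 0.06 without BPB 2.

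**Figure D2:**
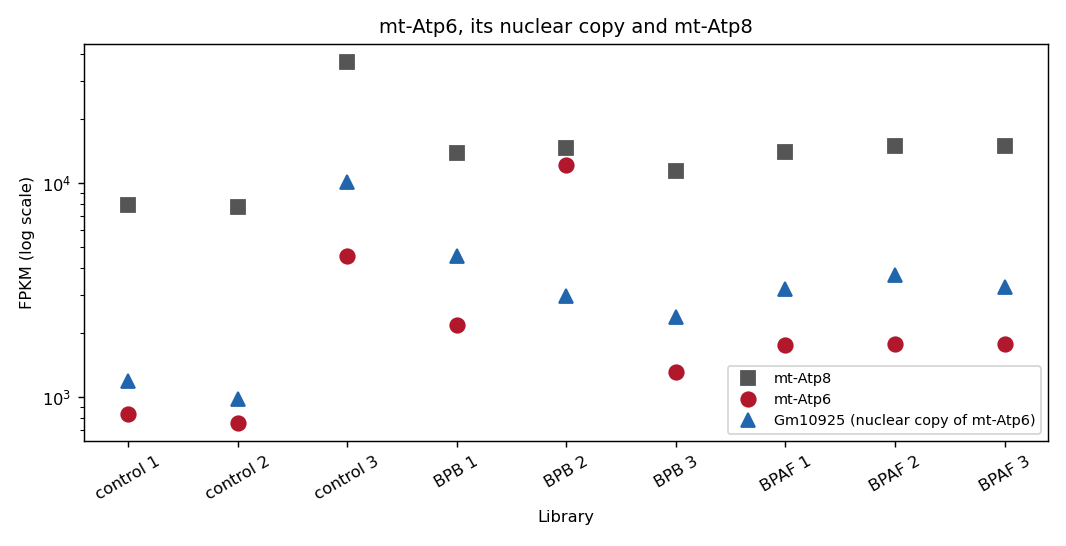
FPKM on a log scale of mt-Atp8 (squares), mt-Atp6 (circles) and the nuclear copy Gm10925 (triangles) in each of the 9 libraries. The circle lies below the triangle in 8 libraries and above it in BPB 2, where mt-Atp6 is 12142 FPKM.

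The other 6 copies had a smaller share of FPKM than Gm10925 in every library. Each copy's FPKM as a share of the copy and its gene was 6.88% (mt-Co1 in control 2) to 22.7% (mt-Co3 in control 3), and for Gm10925 it was 56.4% to 68.9% outside BPB 2 and 19.6% in it. The values of these 7 members are therefore uncertain by how such reads were assigned. With the 7 copies added to their genes, the median log2 difference of the mitochondrial members was 0.38 for BPB and 0.37 for BPAF against control.

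In neither comparison with control did a mitochondrial member pass the test. For BPB, 0 of 13 were called, against 2.55% of all tested genes, and 0 had an unadjusted p under 0.05, against 17.4%. All 13 estimates were above 0, and their median log2 difference was 0.38, with a range of 0.01 (mt-Atp8) to 1.2 (mt-Atp6), beside 0.15 over all tested genes. For BPAF, again 0 of 13 were called, against 0.0218%, and 0 had an unadjusted p under 0.05, against 12.8%. All 13 estimates were above 0, with a median of 0.35, a range of 0.02 (mt-Nd4l) to 0.70 (mt-Co1) and a median of 0.21 over all tested genes. This direction holds on the log scale, where control 3 weighs less: the mean FPKM was lower than in control for 3 of the 13 in BPB (mt-Co3, mt-Atp8 and mt-Nd3) and for 6 in BPAF (these and mt-Atp6, mt-Co2 and mt-Nd6). The 95% intervals were wide: that of mt-Co1 for BPB ran from -0.31 to 1.66 and that of mt-Co3 from -1.65 to 1.90. Scaling by median ratios lowered the median over all tested genes from 0.15 to -0.04 for BPB and from 0.21 to -0.02 for BPAF, and the mitochondrial medians to 0.13 and 0.05.

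These estimates depended most on control 3. In 11 of the 13 mitochondrial members, all but mt-Nd5 and mt-Nd4l, the 6 exposed libraries were all above controls 1 and 2, and in 10 of 13 control 3 was above every exposed library. Controls 1 and 2 were set apart after the values were seen, and the share of all tested genes with these orders is not given here. The 13 genes were read in the same libraries, so these counts are not 13 separate results. Without control 3 the median log2 difference was 1.14 for BPB and 1.05 for BPAF, 11 and 10 of the 13 had an unadjusted p under 0.05, beside 18.4% and 15.5% of all tested genes in that fit, and still 0 were called, as the smallest adjusted p over all members was 0.0546 for BPB and 0.197 for BPAF. Each of the 9 libraries was left out in turn, the medians were 0.010 and 0.035 without control 1 and 0.09 and 0.04 without control 2, and nothing in the labels sets control 3 apart. Without control 3, BPB 1 and BPAF 1 together, the mitochondrial medians were 0.92 for BPB and 1.16 for BPAF and the nuclear medians 0.13 and 0.23, with 0 of 90 members called and 21 and 20 of them at an unadjusted p under 0.05, beside 16.5% and 14.7% of all tested genes.

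The nuclear members were lower than the mitochondrial ones at the median. The mean over the libraries of the 78 tested was 1.97 to 425 FPKM with a median of 46.8, against a median of 3742 for the mitochondrial members. In complex I the highest means were those of Ndufa6 and Ndufb9, accessory subunits. Ndufa6 had 109, 96.9 and 541 FPKM in control, 356, 169 and 168 in BPB, and 371, 162 and 234 in BPAF. Ndufb9 had 93.7, 115 and 245 in control, 249.5, 142 and 137 in BPB, and 246, 132 and 93.3 in BPAF. Both were high in control 3, BPB 1 and BPAF 1, 1 library of each group.

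In complex II, Sdha, the flavoprotein that oxidizes succinate, had 45.3, 48.3 and 50.3 FPKM in control, 52.2, 57.4 and 47.7 in BPB, and 63.2, 52.7 and 45.6 in BPAF. Sdhd, a membrane anchor, had 104, 99.5 and 128 in control, 116, 100.5 and 100.6 in BPB, and 84.8, 149 and 86.0 in BPAF. The groups overlapped in both. In complex III, Uqcrb had 83.8, 101 and 511 in control, 268, 98.2 and 85.2 in BPB, and 162, 127 and 79.5 in BPAF. Uqcrh, the hinge protein, had its lowest value in control 1 (53.2) and its highest in control 3 (218).

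In complex IV, Cox6b1 and Cox8a were the most abundant nuclear members of all. Cox6b1 had 279, 261 and 1011 FPKM in control, 662, 243 and 235 in BPB, and 535, 350.1 and 246 in BPAF. Cox8a had 313, 323 and 310 in control, 411, 396 and 420 in BPB, and 356, 496 and 230 in BPAF. Cox8a was above all controls in the 3 BPB libraries, with a log2 difference of 0.37, and BPAF enclosed the controls. In complex V, Atp5a1 and Atp5b, the alpha and beta subunits of the catalytic head, were nearly flat: Atp5b had 141, 142 and 147 in control, 153, 134 and 129 in BPB, and 163, 153 and 98.6 in BPAF. Atp5a1 ran from 106 in BPAF 3 to 164 in BPB 2.

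**Figure D3:**
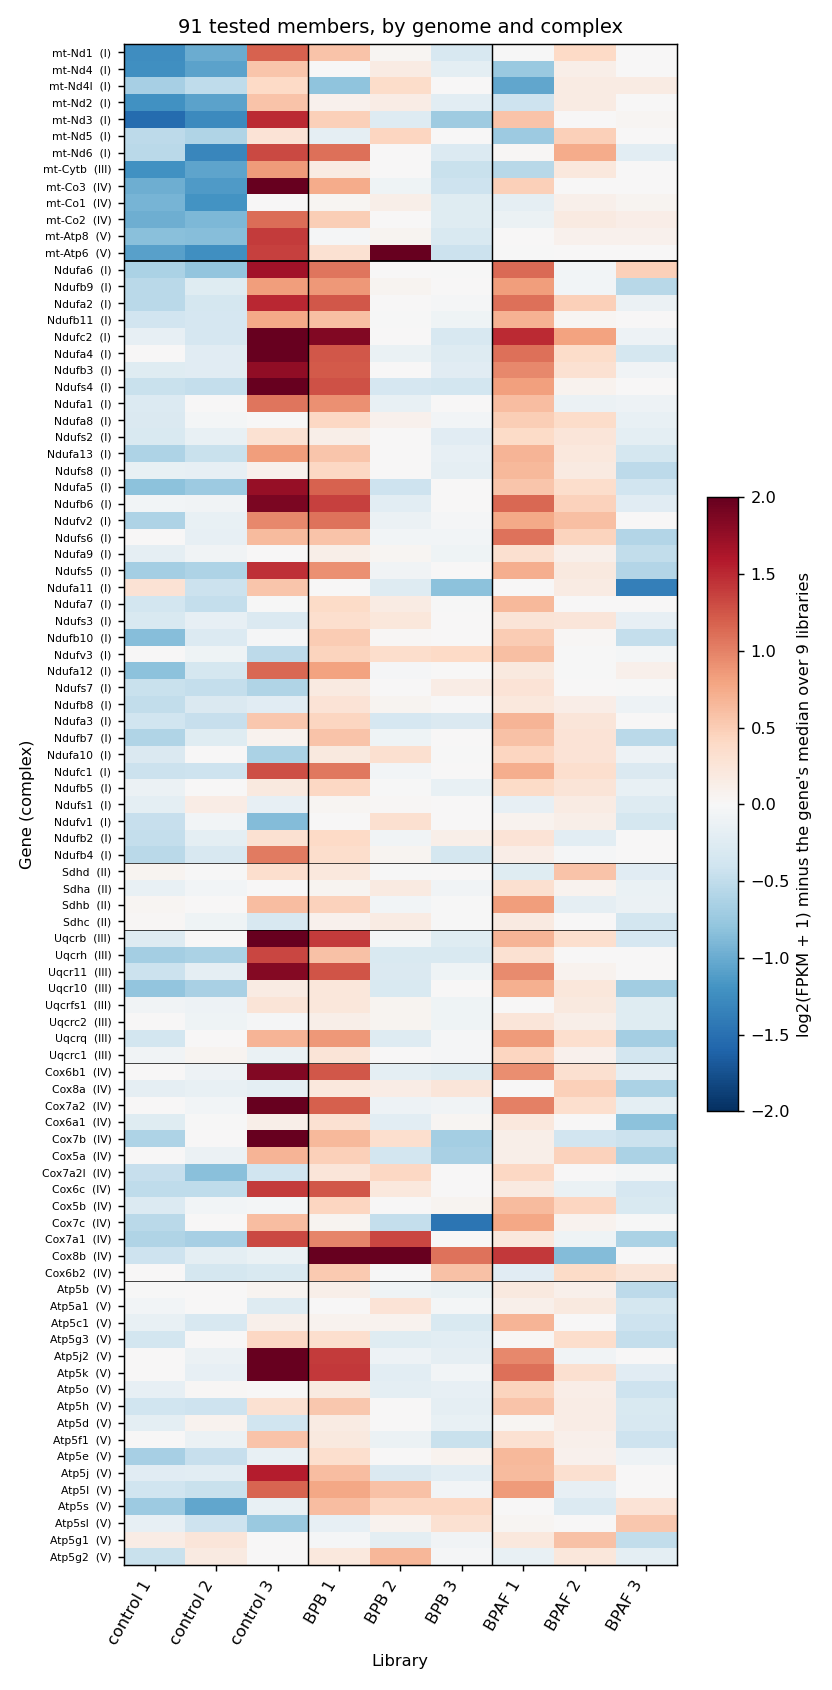
Each row is 1 of the 91 tested members and each column 1 library, coloured by log2(FPKM + 1) minus the gene's median over the 9 libraries, with colours ending at -2 and 2. The thick horizontal line separates the 13 mitochondrial from the 78 nuclear genes and thin lines separate the complexes. Red fills most nuclear rows in BPB 1 (75 of 78 above their own median) and BPAF 1 (70 of 78), while the mitochondrial rows are red in control 3 (12 of 13) and blue in controls 1 and 2 (0 of 13).

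How far a nuclear member varied between libraries went with the length of its coding sequence. Of the 77 nuclear members with a length in GENCODE M21, Cox8b has no fold because it is listed at 0 in BPAF 2. Across the other 76, Spearman's rho between coding length and the fold of the highest over the lowest library was -0.67, a description across genes that share the same libraries. The 47 of these under 500 coding bases varied by a median of 3.65-fold, the 18 of 500 to 1000 bases by 1.99-fold and the 11 over 1000 bases by 1.66-fold. The largest folds among the 76 were those of Cox7b (9.0-fold), Ndufa4 (8.13), which is now placed in complex IV, Ndufs4 (7.68) and Atp5k (7.15). Ndufs1 (1.39-fold) and Sdha (1.40) had the smallest.

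Cox7b, a small subunit of complex IV, had 67.4, 104 and 578 FPKM in control, 163, 131 and 64.2 in BPB, and 112, 79.9 and 76.8 in BPAF. Ndufs4, an accessory subunit of complex I, had 39.1, 38.0 and 292 in control, 131, 42.0 and 41.3 in BPB, and 94.8, 56.0 and 53.5 in BPAF. Ndufs1, the largest subunit of complex I, had 8.83, 11.5 and 9.11 in control, 10.6, 10.6 and 10.3 in BPB, and 9.15, 11.7 and 8.46 in BPAF. Thus control 3 was the highest library of the first pair and lay within the controls in Ndufs1.

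By library, the median deviation of the 48 short members (Cox8b among them) from their own medians, on the log2 scale, was -0.39, -0.23 and 0.93 in control, 0.61, -0.06 and -0.04 in BPB, and 0.66, 0.23 and -0.21 in BPAF. For the 11 long members it was -0.15, -0.05 and -0.13 in control, 0.11, 0.06 and -0.04 in BPB, and 0.32, 0.12 and -0.26 in BPAF. Control 3, BPB 1 and BPAF 1 were thus high in short members, and in control 3 the long ones were not high. The same direction held outside the machinery: rho between coding length and deviation was -0.34 in control 3, -0.37 in BPB 1 and -0.42 in BPAF 1 over 12345 other tested genes, and -0.52, -0.57 and -0.40 over the 77 nuclear members. What part this tie to length has in the members' values was not tested.

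**Figure D4:**
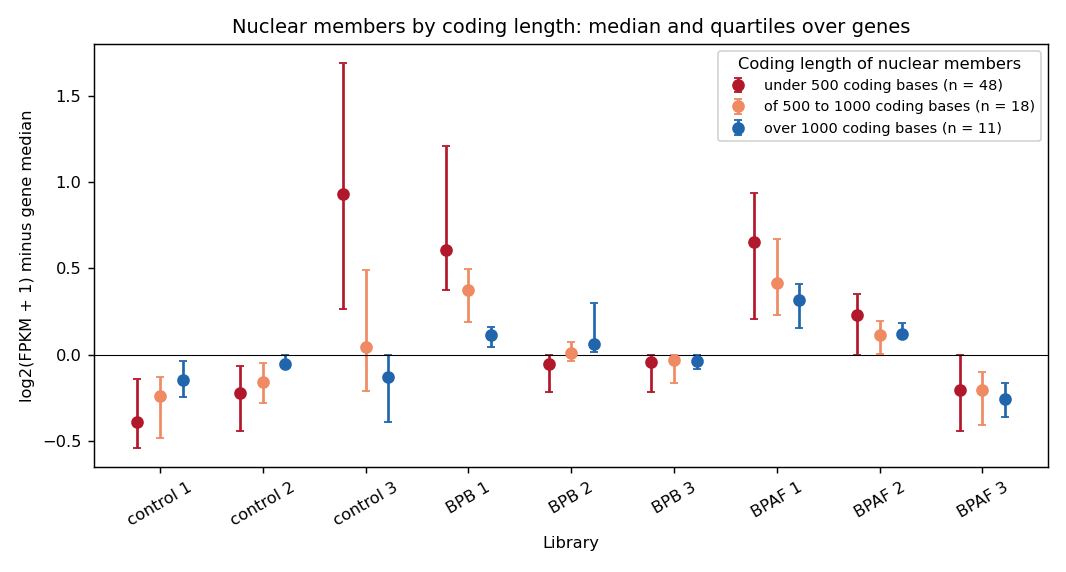
Median (points) and quartiles (bars) over genes of log2(FPKM + 1) minus the gene's own median, for nuclear members under 500 (48 genes), of 500 to 1000 (18) and over 1000 coding bases (11), by library. In control 3 the shortest class is at 0.93 and the longest at -0.13, while the classes lie close together in BPB 2 and BPB 3.

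The structural parts of complex I split the same way. The 7 nuclear core subunits carry the flavin and the iron-sulfur clusters and have at least 636 coding bases. In control 3 they were at a median of 0.966 times the mean of controls 1 and 2. The other 29, the accessory subunits and Ndufa4 by its symbol, were at 2.31 times. In the F1 head of complex V the median of 5 subunits was 1.04 times. The membrane part was mixed, with the small subunits Atp5k at 6.45, Atp5j2 at 5.16 and Atp5l at 3.23. The c subunit genes Atp5g1, Atp5g2 and Atp5g3, also under 500 coding bases, were at 0.829, 1.11 and 1.51. Complex V thus did not split clearly by part. Within the complex I core the exception was Ndufv2, at 2.56 times. Many nuclear members have processed pseudogenes, and 4 of the symbols left out are such copies. Atp5l2-ps had 5.32 to 30.2 FPKM, Atp5k-ps2 0.710 to 10.6 and Atp5l-ps1 0.410 to 5.08, each highest in control 3. Atp5l-ps2 was at 0 in every library. Members with such copies, Atp5k and Atp5l among them, are uncertain to that extent.

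For BPB against control, 0 of the 78 nuclear members were called by limma, against 2.55% of all tested genes, and 5 had an unadjusted p under 0.05 (Atp5s, Cox8b, Ndufs7, Cox7a2l and Ndufv3), against 17.4% of all genes. Their median log2 difference was 0.14, beside 0.15 over all tested genes, and 51 of 78 estimates were above 0, beside 8724 of 13743. The nuclear median rested on single libraries: it was 0.41 without control 3, -0.03 without control 1, 0.04 without control 2, -0.05 without BPB 1 and 0.25 without BPB 3. Under scaling by median ratios it also changed sign, to -0.10, beside -0.04 over all tested genes. By complex, 27 of 36 estimates of complex I were above 0, 2 of 4 of complex II, 5 of 8 of complex III, 8 of 13 of complex IV and 9 of 17 of complex V. In 13 nuclear members all 3 BPB libraries were above all 3 controls and in 1, Atp5g1, all were below. Libraries did not overlap in 25.6% of all tested genes.

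The smallest adjusted p belonged to Atp5s. It had 3.79, 2.87 and 6.19 FPKM in control and 11.1, 9.57 and 9.59 in BPB, and the 2 groups did not overlap. Its log2 difference was 1.12 (SE 0.28, limma adjusted p = 0.0709). Ndufs7, the core subunit with the last iron-sulfur cluster before ubiquinone, had 11.8, 11.5 and 10.6 FPKM in control, 18.9, 16.5 and 18.5 in BPB, and 20.3, 16.7 and 16.5 in BPAF. All 6 exposed libraries were above all 3 controls, with a log2 difference of 0.62 (SE 0.20, adjusted p = 0.149) for BPB and 0.61 (SE 0.20, adjusted p = 0.304) for BPAF. Control 3 was not high in this gene.

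Cox7a2l, which joins complexes III and IV into supercomplexes, had 92.2, 70.6 and 95.9 FPKM in control, 149.7, 169 and 128 in BPB, and 169, 127 and 123 in BPAF. Again no exposed library overlapped the controls, with log2 differences of 0.79 (SE 0.27, limma adjusted p = 0.164) and 0.69 (adjusted p = 0.345). Ndufv3, an accessory subunit near the NADH site, had 14.0, 13.2 and 9.49 in control, 19.5, 18.2 and 18.8 in BPB, and 21.7, 13.9 and 13.5 in BPAF, with 0.60 (adjusted p = 0.260) for BPB. Cox6b2 followed with 0.58 (adjusted p = 0.297). The other members whose libraries did not overlap in the BPB comparison were Atp5e, Ndufv1, Cox5b, Ndufb8, Ndufs3, Cox8a, Ndufb10, Ndufa7 and Cox8b, all higher in BPB.

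For BPAF against control, 0 of 78 nuclear members were called, against 0.0218% of all tested genes, and 5 had an unadjusted p under 0.05, against 12.8%. The nuclear median log2 difference was 0.11, beside 0.21 over all tested genes, with 51 of 78 estimates above 0, beside 9633 of 13743. The median was 0.41 without control 3, -0.02 without control 1, 0.06 without control 2, -0.06 without BPAF 1 and 0.30 without BPAF 3. It changed sign to -0.18 under scaling by median ratios, beside -0.02 over all tested genes. By complex, 28 of 36, 2 of 4, 5 of 8, 6 of 13 and 10 of 17 estimates were above 0 for complexes I to V. The 7 members whose BPAF libraries were all above the controls were Ndufs7, Cox7a2l, Atp5e, Atp5sl, Ndufb8, Ndufs3 and Ndufa7, and 0 were all below, where 16.8% of all tested genes had no overlap.

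Atp5e, the epsilon subunit of the F1 stalk, had 22.0, 25.4 and 31.8 FPKM in control, 44.9, 35.3 and 37.1 in BPB, and 56.2, 37.3 and 32.6 in BPAF. Its lowest exposed library was thus just above control 3, and the log2 difference was 0.63 (limma adjusted p = 0.381) for BPAF. Atp5sl, linked to complex I assembly, had 4.16, 3.37 and 2.48 in control and 4.98, 4.79 and 7.45 in BPAF, with 0.63 (adjusted p = 0.362). Ndufb8, an accessory subunit often used as a protein marker of complex I, had 10.6, 12.4 and 12.9 in control, 18.7, 15.9 and 15.3 in BPB, and 18.0, 16.9 and 14.3 in BPAF, with 0.42 for BPAF.

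**Figure D5:**
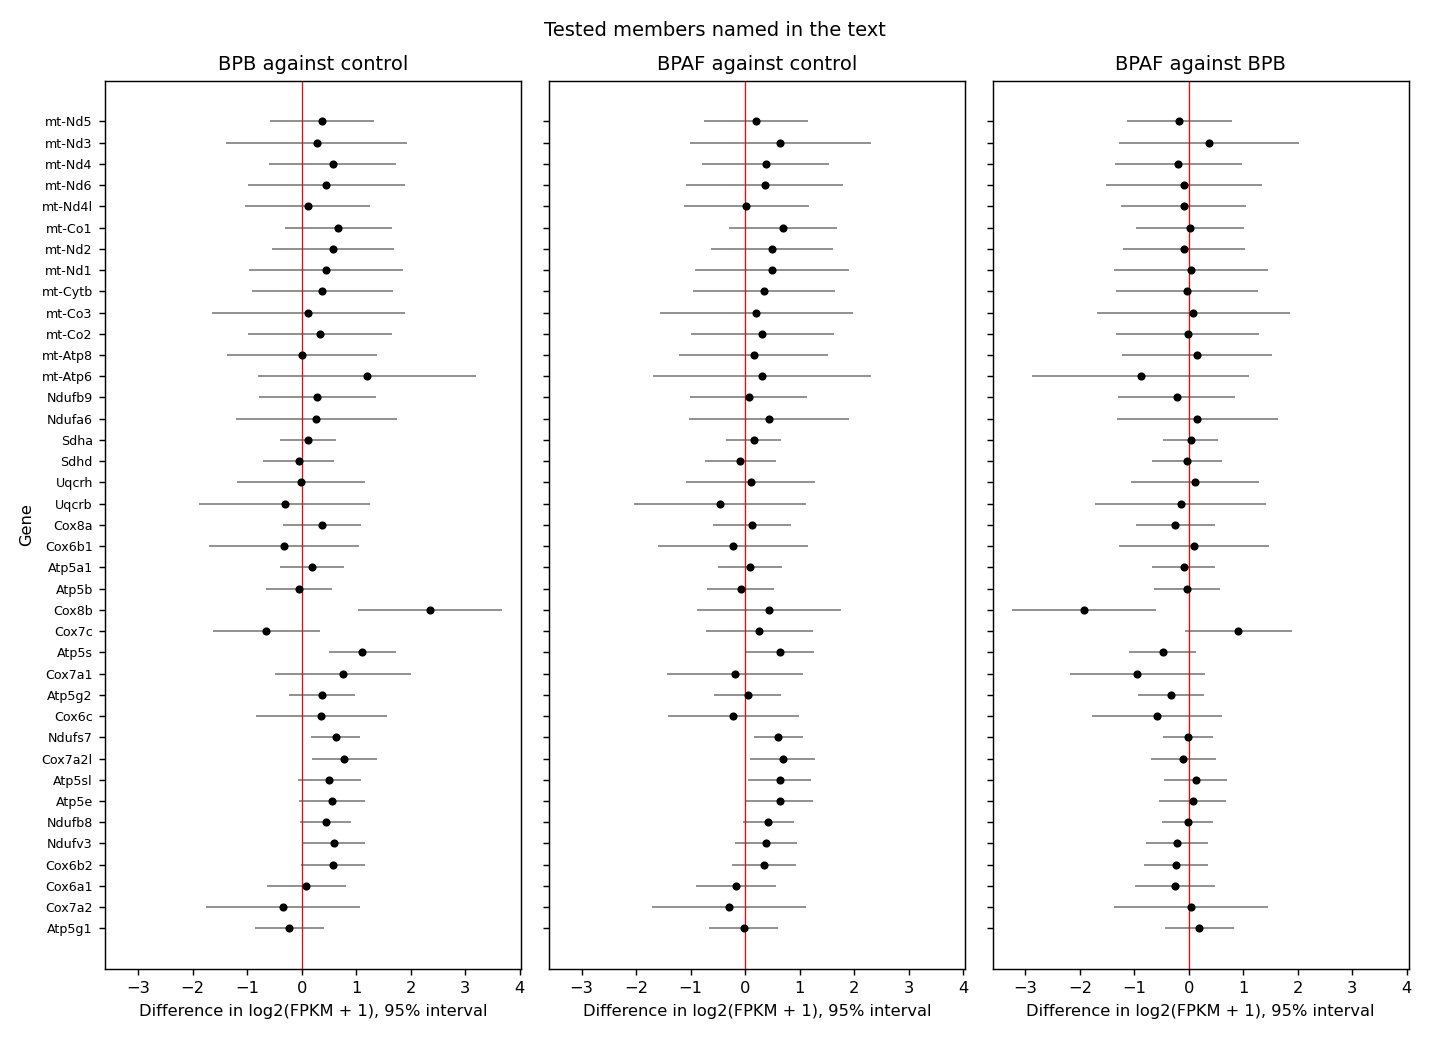
Log2 difference (points) and 95% interval (lines) of the tested members named in the text, for BPB against control (left), BPAF against control (middle) and BPAF against BPB (right), on 1 common axis. Intervals of the mitochondrial genes at the top all include 0, and in the left panel those of Cox8b and Atp5s lie farthest above 0.

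Between the bisphenols, at equal dose and time, 0 of 91 members were called, against 0.24% of all tested genes, and 1, Cox8b, had an unadjusted p under 0.05, against 6.75%. The median log2 difference of BPAF from BPB was -0.03 for the mitochondrial and 0.01 for the nuclear members, beside 0.07 over all tested genes. Leaving out single libraries moved these to between -0.19 (without BPAF 2) and 0.10 (without BPAF 1) for the mitochondrial and to between -0.20 (without BPAF 1) and 0.19 (without BPB 1) for the nuclear members. The interval of mt-Co1 was -0.97 to 1.01 and that of mt-Cytb -1.33 to 1.27, so the test leaves room for differences of either sign. In 1 member, Atp5s, all BPAF libraries (6.93, 5.54 and 8.61 FPKM) were below all BPB libraries, where 13% of all tested genes had no overlap. Its log2 difference was -0.48 (SE 0.28, limma adjusted p = 0.894). Cox7c had 6.42, 4.11 and 1.61 FPKM in BPB and 11.2, 6.54 and 6.11 in BPAF, a log2 difference of 0.91 (SE 0.44, limma adjusted p = 0.779). Same-numbered BPB and BPAF libraries deviated together, and with the replicate number as a block in these 6 libraries alone, 0 of 91 members and 0 of all tested genes were called, and 5 members had an unadjusted p under 0.05, against 13% of all tested genes. The joint test of the 3 groups called 0 of 91 members, against 0.844% of all tested genes, and 4 (Cox8b, Atp5s, Ndufs7 and Cox7a2l) had an unadjusted p under 0.05, against 15.1%.

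Complex IV has subunits with versions for heart, skeletal muscle and brown fat (Cox6a2, Cox7a1, Cox8b) and for testis (Cox6b2, Cox7b2, Cox8c), beside the general forms. Cox8b had 0.366, 0.598 and 0.657 FPKM in control, 8.33, 12.6 and 2.88 in BPB, and 3.88, 0 and 0.826 in BPAF. It reached the level for testing only through BPB and BPAF 1, so its presence among the tested genes already required a difference. BPB lay above all controls, with a log2 difference of 2.36 (SE 0.59, limma adjusted p = 0.0720), and BPAF differed from BPB by -1.93 (SE 0.59, adjusted p = 0.375). With no filter on level the adjusted p was 0.118. With the filter, which favours such a gene, Cox8b had an adjusted p of 0.0354 when the 6 libraries of BPB and control were fitted alone, 0.0301 without BPAF 1 and 0.0479 without BPAF 2, and these are no independent support. Against its general form Cox8a it made up 1.99%, 3.07% and 0.683% of the pair in BPB, at most 0.211% in control and at most 1.08% in BPAF.

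Markers of other tissues differed between the libraries too. The urothelium sum given above was high in the same 4 libraries where Cox8b reached 1 FPKM, the 3 of BPB and BPAF 1. It was 2278, 3216 and 3735 FPKM in BPB and 1971 in BPAF 1, against 15.0 to 90.4 elsewhere. Among these 4 it was highest in BPB 3, where Cox8b was lowest. No list given here kept the order of Cox8b through all 9 libraries. The brown fat gene Ucp1 was at 17.1 FPKM in BPB 2 and 0 to 0.208 elsewhere, and the sum of 5 brown adipocyte markers was 44.7 there and 1.46 to 5.29 elsewhere. The 8 white adipocyte markers, such as Adipoq and Cfd, summed to 102, 106 and 127 FPKM in control, 1046, 389 and 118 in BPB, and 782, 0.867 and 428 in BPAF, so they were high in the 3 libraries with the highest Cox8b and also in BPAF 3. The 6 heart muscle markers summed to 72.6, 66.8 and 133 in BPB, 20.5 in BPAF 1 and 2.95 to 19.5 elsewhere, with Myh6 at no more than 0.0322 FPKM in any library and Actc1 at 64.7 to 121 in BPB. The 12 skeletal muscle markers summed to 308, 203 and 510 in BPB, 85.4 to 160 in control and 12.8 to 119 in BPAF. Most of this was Acta1 and Ckm, and the other 10 markers summed to 16.4 to 38.5 in BPB, 10.3 to 43.9 in control and 3.54 to 17.0 in BPAF. Within BPB both muscle sums were lowest in BPB 2, where Cox8b was highest, and highest in BPB 3, where it was lowest. Mb, myoglobin, was below 1 FPKM in all 9 libraries. The part of these cells in the values of Cox8b was not tested.

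Cox7a1 had 1.27, 1.19 and 7.62 FPKM in control, 5.83, 7.74 and 2.46 in BPB, and 3.0, 2.26 and 1.23 in BPAF, with control 3 near BPB 2. As a share of Cox7a1 and Cox7a2 it was 6.86% in BPB 2 and 1.08% to 2.25% in the other libraries. Cox7a2, the general form, had 113, 109 and 488 in control, 260, 105 and 107 in BPB, and 227, 142 and 98.1 in BPAF, so the high value of Cox7a1 in control 3 came with a high Cox7a2 and that in BPB 2 did not. Cox6a1 ran from 89.3 FPKM in BPAF 3 to 198 in BPB 1, while its muscle form Cox6a2 stayed below 1 FPKM. Cox6b2 had 2.10, 1.44 and 1.52 in control, 3.47, 2.08 and 3.64 in BPB, and 1.64, 3.05 and 2.69 in BPAF. Of 4 spermatid markers, the sum was at most 0.0293 FPKM in any library.

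Other genes of mitochondrial energy metabolism were read from lists. Of 10 further genes of the respiratory chain, 46 assembly factors, 10 tested regulators of mitochondrial biogenesis, 31 genes of mitochondrial DNA and RNA maintenance, 17 of the tricarboxylic acid cycle and 18 of the outer membrane and protein import, 0 were called in any of the 3 comparisons by limma. At an unadjusted p under 0.05, BPB against control gave 1, 3, 1, 4, 0 and 0 of them in that order and BPAF against control 1, 4, 1, 5, 1 and 2, beside 17.4% and 12.8% of all tested genes. The maintenance genes had median log2 differences of 0.23 for BPB and 0.35 for BPAF, and the cycle genes 0.09 and 0.05. Of 16 glycolysis genes 5 had an unadjusted p under 0.05 for BPB and 0 for BPAF, beside the same 17.4% and 12.8%. Their median log2 difference was -0.15 for BPB and -0.25 for BPAF, beside 0.15 and 0.21 over all tested genes. Estimates were below 0 for 9 of the 16 in BPB and for 14 in BPAF. For BPB 1 of the 16 was called, Pfkm, the muscle type of phosphofructokinase. Pfkm had 11.3, 11.4 and 7.72 FPKM in control, 21.4, 23.5 and 25.8 in BPB, and 16.5, 10.5 and 14.7 in BPAF. It was higher in BPB than in control by 1.16 on the log2 scale (SE 0.25, limma adjusted p = 0.0473), and the groups did not overlap. The call was lost when any 1 of the control or BPB libraries was left out (adjusted p = 0.0810 to 0.211), without BPAF 3 (0.0568), with the replicate number as a block (0.106) and at equal FPKM sums (0.250). The smooth muscle sum given above was highest in the same 3 libraries, and its part in Pfkm was not tested.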

How the data were processed

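Messenger RNA of mouse uterus was sequenced with a stranded mRNA kit, per the labels' protocols, in 3 libraries of each of 3 groups taken from the sample titles. The authors deposited 1 value per gene symbol and library with no unit named, and the values were read as FPKM because, at GENCODE M21 lengths, 87.7% to 88.9% of the values of single-transcript genes were whole reads within 0.05. Aligner, genome build and counting rule: not given in the sources used here. Of 34745 lines, 126 with a repeated symbol were left out. On the deposited FPKM, limma 3.58.1 was run under R 4.3.3 (trend, robust, group only, 9 libraries in 1 fit) on log2(FPKM + 1), which understates the change of low genes, over genes that reached 1 FPKM in 3 or more libraries, two-sided, with Benjamini-Hochberg adjustment over all of them. The fit was tested on simulated data with noise drawn separately for each gene and library. That test does not cover deviations shared by many genes of a library. Same-numbered libraries of BPB and BPAF deviated together from their group means (correlations 0.34 to 0.48, against -0.34 to -0.07 for the other 6 pairs), and those of control did not with either (-0.40 to -0.08); what a number stands for is not given in the labels.

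The members and lists were chosen with earlier results of these data known. Named are all mitochondrial members, the 2 nuclear members with the highest mean in each complex, the 6 with the smallest p in each comparison, the complex IV isoforms, the members nearest the level for testing and called genes of the related lists. Other members, such as Cox7b, Ndufs4, Ndufs1, Ndufa4, Atp5k and those whose libraries did not overlap, were named after their values were seen. Alternatives were other pseudocounts, filters, scalings, fits and left-out libraries; leaving out 3 libraries together, adding nuclear copies and a replicate block in the BPB and BPAF libraries alone were chosen after seeing the data. Lengths, copies and sequences come from GENCODE M21 (93 of 94 members matched) and promoters from RefSeq (GRCm38.p6).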

Additional observations from a re-analysis of the deposited data

How the results depend on the processing

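The count of members called for BPB against control was 0 and became 1 (Cox8b) with the 6 libraries of the comparison alone, 2 (Cox8b and Atp5s) at an adjusted p under 0.1, and 0 to 1 when each library was left out in turn. Cox8b was tested only because it is high in BPB and BPAF 1, and with no filter on level 0 members were called, with a smallest adjusted p of 0.105. The joint test gave 0 to 1 when each library was left out. The median log2 difference of the mitochondrial members ran from 0.010 to 1.14 for BPB and from 0.035 to 1.05 for BPAF over the left-out libraries, highest without control 3. With control 3, BPB 1 and BPAF 1 left out together, an alternative chosen after seeing the data, the mitochondrial median for BPAF was 1.16 and the log2 ratio of the mitochondrial to the nuclear sum differed from control by 0.89, against 0.37 with all libraries. The difference of mt-Atp6 between BPAF and BPB was -1.54 to 0.064 over the left-out libraries and reversed without BPB 2. The cause was not tested for any of these.

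Between control and either bisphenol, 0 of 6 libraries correlated best with their own number in each comparison. The labels do not give what a number stands for, and these correlations cannot show whether same-numbered libraries share anything more. With the replicate number as a block in all 9 libraries, 0 members were called in each comparison and the joint test, and 6, 3 and 1 had an unadjusted p under 0.05, beside 15.8%, 10.8% and 6.20% of all tested genes. The genes called went from 351 to 19 for BPB against control, from 3 to 0 for BPAF against control, from 33 to 0 for BPAF against BPB and from 116 to 0 in the joint test. With the block in the 6 libraries of BPB and BPAF alone, chosen after seeing the data, 0 genes were called and mt-Atp6 stayed at -0.89. The block changed no call of a member. The count for BPB against control was 61 without control 3, 1 without BPB 2 or BPB 3, 0 without control 1 and 503 with the 6 libraries alone, so the background of calls depends on the setting. Depth limits the members with low values, such as Cox8b, Atp5g2 and Cox6b2. Among the mitochondrial members mt-Nd6 rested on the fewest reads (148 at its lowest).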
